A study of Mus musculus with 21 samples.

Results

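The ends of 53 ribosomal protein genes, 34 of the large subunit (Rpl and Rplp) and 19 of the small subunit (Rps and Rpsa), were examined for chromatin immunoprecipitation peaks in mouse hepatocytes. The genes were taken from a fixed list of names, and all 53 matched the 21887 protein-coding genes of the RefSeq annotation of mm10. A gene end is the window of 1 kb on each side of either annotated end of a gene, and a gene has a peak there when at least 1 bp of the peak lies in it. The question was whether peaks of C/EBPα at these genes were gained without Arid1a more often than at the other 11116 genes that H3K4me2 marked at a gene end in all 6 of its lists, called the other marked genes below.

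Hepatocytes were isolated by liver perfusion from mice of a mixed C57/B6 and 129 background at postnatal day 90. KO mice were Arid1a Fl/Fl; Alb-cre, carrying floxed Arid1a and Cre recombinase driven by the albumin promoter, which is active in hepatocytes. WT mice were Arid1a Fl/Fl without Cre, so both genotypes carry the floxed alleles. V5-Arid1a mice carry Arid1a with a V5 tag. C/EBPα was mapped in 2 KO and 2 WT libraries, H3K4me2 (histone H3 with dimethylated lysine 4, found at active and poised promoters and enhancers) in 3 KO and 3 WT libraries, and V5-Arid1a in 1 library with no replicate. How many mice went into a library is not stated in the labels, and the p-values below measure the spread between these libraries. Deletion of Arid1a leaves no readout in a peak list, so genotypes are as labelled.

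Each ribosome holds a single copy of most ribosomal proteins, and cells make them in matched amounts. Their genes are among the most strongly transcribed of any cell, and their promoters are short, often lack a TATA box and start transcription at a run of pyrimidines (the terminal oligopyrimidine start) that later lets growth signals control translation of the mRNA. In hepatocytes, which export large amounts of plasma protein, C/EBPα is a transcription factor of liver-specific genes, and ARID1A is a DNA-binding subunit of a SWI/SNF chromatin remodelling complex.

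The promoters that follow belong to the 1 member that gained a C/EBPα peak (Rps26) and to members with a C/EBPα peak in all 4 lists. Of the latter, those are shown whose peaks, merged over the 4 lists, reached into the promoter, even if only 1 list did so. Each runs 5′ to 3′ along the gene from 250 bases before to 50 bases after the annotated start and comes from RefSeq GRCm38.p6 (mm10). Capitals mark a C/EBP site (TTGCNNAA), an Ets motif (CCGGAAG), an Sp motif (GGGCGG), each on either strand, or a C and 4 pyrimidines beginning within 5 bases of the start.
Rps26 (chr10:128626457-128626756, minus strand): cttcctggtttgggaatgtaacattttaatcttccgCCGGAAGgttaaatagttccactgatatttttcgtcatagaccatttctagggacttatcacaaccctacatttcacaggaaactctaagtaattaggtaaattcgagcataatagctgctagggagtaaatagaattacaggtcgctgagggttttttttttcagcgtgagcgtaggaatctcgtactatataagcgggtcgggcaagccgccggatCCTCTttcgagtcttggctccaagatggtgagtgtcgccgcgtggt
Rpl10a (chr17:28328221-28328520, plus strand): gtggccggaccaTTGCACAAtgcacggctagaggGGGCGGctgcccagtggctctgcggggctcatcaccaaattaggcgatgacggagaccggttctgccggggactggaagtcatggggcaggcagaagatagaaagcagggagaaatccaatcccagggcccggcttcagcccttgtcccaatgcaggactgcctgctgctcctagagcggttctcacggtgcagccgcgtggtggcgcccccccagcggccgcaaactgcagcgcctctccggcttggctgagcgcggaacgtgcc
Rpl27 (chr11:101441995-101442294, plus strand): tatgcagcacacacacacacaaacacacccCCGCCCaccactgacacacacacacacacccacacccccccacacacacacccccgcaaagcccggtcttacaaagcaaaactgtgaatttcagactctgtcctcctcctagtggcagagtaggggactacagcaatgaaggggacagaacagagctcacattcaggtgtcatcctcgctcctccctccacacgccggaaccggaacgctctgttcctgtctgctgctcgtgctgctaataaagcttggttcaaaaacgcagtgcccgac
Rpl9 (chr5:65391382-65391681, minus strand): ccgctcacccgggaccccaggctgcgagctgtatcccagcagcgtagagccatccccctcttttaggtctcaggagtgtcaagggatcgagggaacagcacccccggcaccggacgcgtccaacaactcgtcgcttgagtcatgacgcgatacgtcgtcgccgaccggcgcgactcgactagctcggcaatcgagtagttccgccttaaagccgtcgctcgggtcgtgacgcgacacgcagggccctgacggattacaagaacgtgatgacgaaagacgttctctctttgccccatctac
Rplp2 (chr7:141447401-141447700, plus strand): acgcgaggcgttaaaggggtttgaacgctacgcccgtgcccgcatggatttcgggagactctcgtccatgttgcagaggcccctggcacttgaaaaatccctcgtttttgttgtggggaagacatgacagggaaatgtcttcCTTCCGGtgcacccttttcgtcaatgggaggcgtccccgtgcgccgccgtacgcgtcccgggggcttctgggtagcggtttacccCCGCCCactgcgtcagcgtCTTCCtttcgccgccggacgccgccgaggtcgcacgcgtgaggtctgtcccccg
Rps23 (chr13:90922872-90923171, plus strand): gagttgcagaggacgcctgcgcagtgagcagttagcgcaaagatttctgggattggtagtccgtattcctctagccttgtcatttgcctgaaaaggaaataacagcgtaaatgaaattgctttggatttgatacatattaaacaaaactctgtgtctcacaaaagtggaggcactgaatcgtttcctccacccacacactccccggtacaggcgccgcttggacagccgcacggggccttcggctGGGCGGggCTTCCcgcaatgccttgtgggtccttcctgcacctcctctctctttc
Rps24 (chr14:24490428-24490727, plus strand): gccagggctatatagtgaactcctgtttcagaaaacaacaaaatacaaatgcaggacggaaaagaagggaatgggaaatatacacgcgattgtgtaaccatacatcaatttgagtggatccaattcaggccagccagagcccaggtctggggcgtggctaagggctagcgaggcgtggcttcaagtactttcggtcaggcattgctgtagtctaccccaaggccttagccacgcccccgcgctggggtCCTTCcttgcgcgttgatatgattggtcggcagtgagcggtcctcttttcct
Merged over the 4 lists, C/EBPα peaks covered all 300 bases of the Rpl10a and Rpl27 promoters and 243 bases of Rps26. They covered 261 of Rps24, 224 of Rpl9, 206 of Rps23 and 61 of Rplp2. Single lists could cover less. At Rpl27 only the WT list 2 peak, from -258 bp relative to the start, spanned the promoter. Those of KO and of WT list 1 began at -101, -80 and -49 bp. At Rps23 peaks ended at -197 and -48 bp in KO and -167 and -45 bp in WT. At Rplp2 only the KO list 1 peak, ending at -190 bp, reached into the promoter. The promoters of Rpl13a and Rpl15 are not shown, since their C/EBPα peaks lay upstream and covered 0 of the bases. Rpl3 and Rpl17 have no entry in the table.

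The C/EBP site TTGCNNAA was in 4 of the 43 member promoters that the sequence table holds (9.30%), against 8.07% of other marked and 10.1% of all promoters of this length. The 4 were Rpl10a, Rpl11, Rpl22 and Rpl23, and among them Rpl10a alone had a C/EBPα gene-end peak, which covered the site. The palindromic form TTGCGCAA, a case of the same site, was in 0 (0.278% and 0.217%). The Ets motif CCGGAAG was in 16 member promoters (37.2%), against 19.5% of other marked and 11.9% of all promoters. It was in 7 of 16 promoters of members with a C/EBPα peak in some list and in 9 of 27 of those with none. The Sp motif GGGCGG was in 24 (55.8%), against 66.3% and 46.3%, and matches of different motifs can share bases. The YY1 motif AAGATGGCG stood at 2 members, Rpl13a and Rps27 (4.65%, against 3.32% and 1.92%), and the TATA box TATAAA at 3, Rpl22, Rplp0 and Rps28 (6.98%, against 6.92% and 13.3%). All these were searched on both strands. A C and 4 pyrimidines began exactly at the annotated start in 11 members (25.6%), against 2.09% of other marked and 2.17% of all promoters, and within 5 bases of it in 21 (48.8%, against 19.9% and 18.8%). The 11 were Rpl14, Rpl15, Rpl28, Rpl35, Rpl38, Rplp2, Rps6, Rps10, Rps18, Rps21 and Rps27. Median GC content was 59% in members, 61.3% in other marked and 56.3% in all promoters. Matches are letters only and show no binding.

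There were 16178 and 17781 C/EBPα peaks in the KO lists, 17733 and 23646 in the WT lists, and 5726 V5-Arid1a peaks. For H3K4me2 there were 24908, 54544 and 175794 in KO and 34849, 61246 and 49800 in WT. KO list 3 of H3K4me2 stood apart, with the most and the narrowest peaks (median 429 bp) and rank correlations of 0.19 to 0.29 with the other 5 lists over marked genes. The sources used here give no read numbers, so depth is unknown and a missing peak does not show missing binding. A peak list also cannot tell fewer bound cells from less binding per cell. Of the cell type markers, 9 of 10 hepatocyte genes were marked by H3K4me2 in all 6 lists. Alb, Apob, Cps1 and Ttr had C/EBPα gene-end peaks in all 4 lists, while 4 of the 10 hepatocyte genes had none in any list. Of 7 Kupffer cell and leukocyte markers 0 were marked by H3K4me2 in all 6 lists and 0 had a C/EBPα peak in any, and H3K4me2 was at no gene end of Ptprc, Clec4f, Cd3e or Csf1r in any list. Of 5 endothelial, 4 stellate and 4 biliary markers, 1 each was marked in all 6 lists (Tie1, Reln and Epcam). C/EBPα peaks in all 4 lists stood at 0 of these markers. There was no C/EBPα peak in any list at 4 endothelial, 4 stellate and 3 biliary markers. H3K4me2 was missing from every list at 0 endothelial, 1 stellate and 1 biliary marker. V5-Arid1a peaks stood at 1 endothelial, 0 stellate and 0 biliary markers, beside 4 hepatocyte markers and 0 Kupffer cell and leukocyte markers.

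The share of ribosomal protein genes that gained a C/EBPα gene-end peak in KO was not above that of the other marked genes. A gain, meaning a peak in both KO lists and neither WT list, was found at 1 of 53 members (1.89%, exact binomial 95% interval 0.0478 to 10.1), against 2.57% of other marked genes. A loss, the reverse, was found at 0 of 53 (upper bound 6.72%), against 0.72%. A peak in all 4 lists stood at 10 members (18.9%, 9.44 to 31.97), against 17.7%. Of the genes that C/EBPα occupied in both KO lists, the gained share was 1 of 13 members (7.69%, 0.195 to 36.0), against 10.5%, and of those occupied in both WT lists the lost share was 0 of 11, against 3.74%. These shares lie near those of the other marked genes. The intervals are wide: the upper bound for members gained is well above the share in other marked genes.

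The number of members with a C/EBPα peak was 14 (26.4%) and 16 (30.2%) in the KO lists and 11 (20.8%) and 15 (28.3%) in the WT lists. The KO mean of 28.3% ± 2.67 exceeded the WT mean of 24.5% ± 5.34 (SD, n = 2 each) by 3.77 percentage points, less than the spread between the WT lists. For the other marked genes the means were 28.1% ± 0.439 in KO and 23.6% ± 4.82 in WT, a difference of 4.51 points. WT list 1 was lowest in both. Leaving out WT list 1 gave a difference of 0 points for members, and leaving out WT list 2 gave 7.55.

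**Figure D1:**
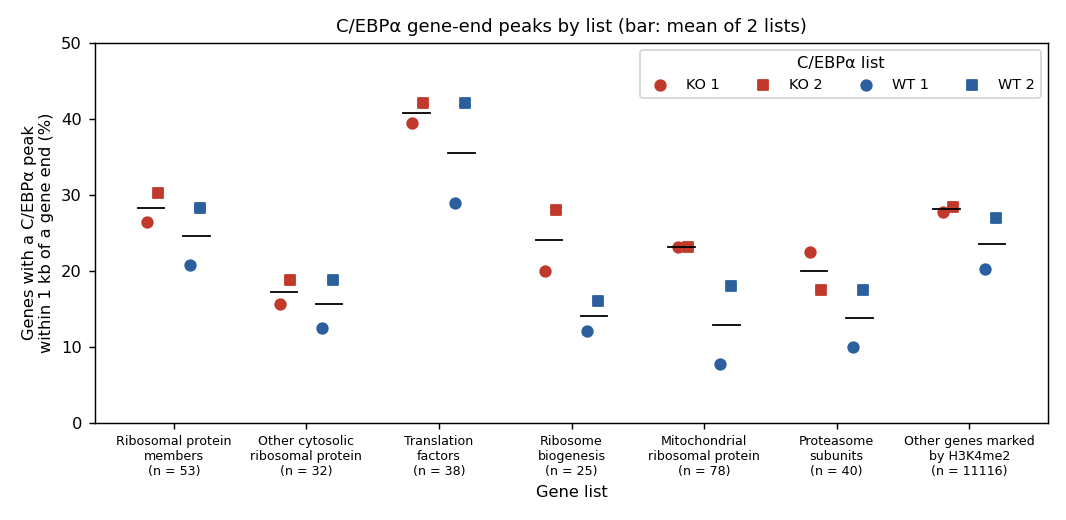
Share of genes (%) with a C/EBPα peak within 1 kb of a gene end, per list (KO left in red, WT right in blue; circles are list 1, squares list 2, bars the mean of 2 lists), for the 53 members, 5 comparison lists and the 11116 other genes marked by H3K4me2. Members and other marked genes sit at similar heights in every list, and WT list 1 is the lowest of the 4 in all lists of genes shown.

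Rps26, whose protein lies at the mRNA exit of the small subunit, was the single gained member. Its peak was 328 and 535 bp wide in the KO lists and absent from both WT lists. The merged region (chr10:128626514-128627048) was centred 224 bp upstream of the start and overlapped H3K4me2 peaks of all 6 lists. It held no V5-Arid1a peak. The call held with 500 bp and 5 kb windows and with an equal number of the widest peaks per list. It also held without any single C/EBPα library. It was lost when only peaks of at least the median width counted, since the narrower KO peak fell below that width. Rps18 was called gained under that rule instead, since its 2 peaks in WT list 2 each fell below that width.

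A second gained region belonged to Rps23, a protein of the decoding centre of the small subunit, which kept another peak and so does not count as a gained gene. Its gained region (chr13:90923992-90924290) was 287 and 299 bp wide in the KO lists, had no WT peak and was centred 1021 bp downstream of the start. Its kept region (chr13:90922530-90923077) was centred 344 bp upstream, with widths of 395 and 501 bp in KO and 406 and 548 bp in WT. Both regions overlapped H3K4me2 in all 6 lists.

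Peaks in all 4 lists stood at 8 of 34 large-subunit members (23.5%) and 2 of 19 small-subunit members (10.5%), while 25 and 10 members had none in any list. Rpl10a, a protein of the mobile L1 stalk, had the widest of them, 602 and 838 bp in KO and 661 and 552 bp in WT. Rpl3, a core protein near the peptidyl transferase centre, had 454 and 430 bp in KO and 436 and 552 bp in WT. Rplp2, an acidic protein of the stalk that recruits elongation factors, had 479 and 427 bp in KO and 344 and 496 bp in WT. KO and WT widths overlapped at all 3 of these genes.

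Rpl13a, known in human cells also for repressing translation of inflammatory mRNAs, had peaks of 396 and 325 bp in KO and 383 and 435 bp in WT. Rpl17, of the peptide exit region, had 394 and 468 bp in KO and 505 and 430 bp in WT. Rpl27 had 532 and 423 bp in KO and 373 and 648 bp in WT. The widths of these 3 again overlapped between genotypes. The narrowest kept peaks were at Rpl15 (312 and 341 bp in KO, 324 and 325 bp in WT) and Rps24 (331 and 334 bp in KO, 316 and 342 bp in WT), the second known in humans as a gene of Diamond-Blackfan anaemia. At Rpl9 they were 397 and 338 bp in KO and 364 and 350 bp in WT. At all 10 kept members no width in bp separated KO from WT lists.

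**Figure D2:**
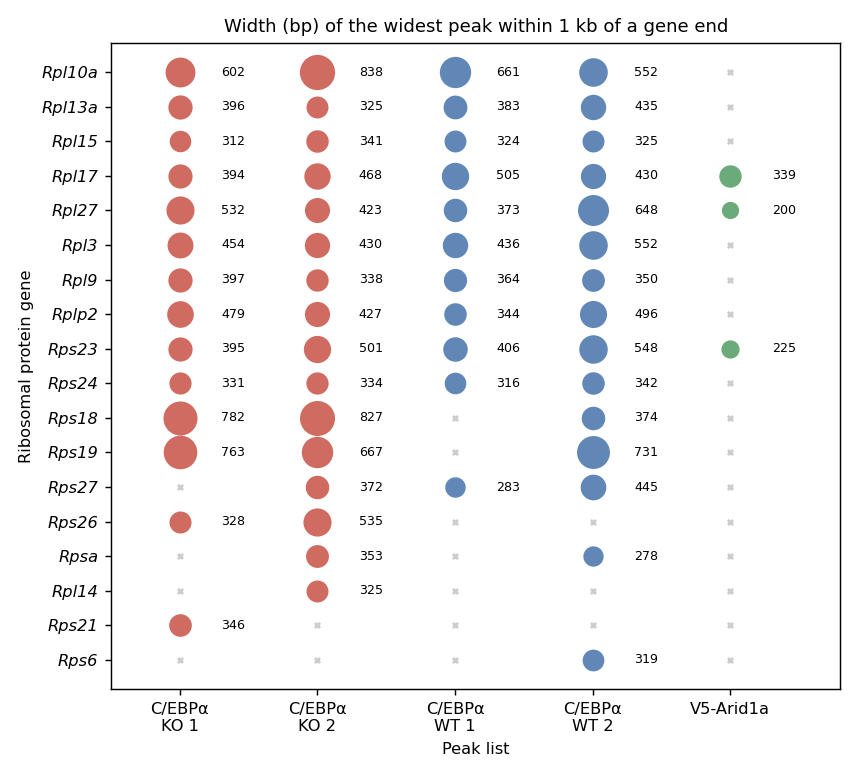
Width in bp (number and dot area) of the widest gene-end peak of each of the 18 members with a C/EBPα peak in some list, with KO lists in red, WT lists in blue and V5-Arid1a in green, and a grey cross where no peak was listed. The 10 upper genes have a peak in all 4 C/EBPα lists, and only Rps26 has both KO and no WT peaks.

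The remaining 7 members with a peak were mixed. Rps19, the gene most often mutated in Diamond-Blackfan anaemia in humans, had peaks of 763 and 667 bp in KO and, in WT list 2 alone, 731 bp. Rps18 had 782 and 827 bp in KO. In WT list 2 it had 2 peaks in the same region, the wider 374 bp, which together covered 693 bp. Rps27 lacked a peak in KO list 1 and had 372 bp in KO list 2 and 283 and 445 bp in WT. Without WT list 2, 3 members were gained (Rps18, Rps19 and Rps26), beside 6.34% of the other marked genes. Rpsa, which also serves as a laminin receptor, had a peak in KO list 2 (353 bp) and WT list 2 (278 bp). Rpl14 (325 bp, KO list 2), Rps21 (346 bp, KO list 1) and Rps6 (319 bp, WT list 2), the substrate of S6 kinase, had a peak in a single list.

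Peaks stood mostly at gene starts. The 18 members held 19 merged regions, and 17 of these belonged to the 16 members whose start is given in the sequence table. The centre was within 400 bp of the start in 12 of the 17, upstream in 10 and downstream in 7, and 12 overlapped the promoter window. Rps6 was the farthest, with its peak at the 3′ end of the gene, 3861 bp downstream of the start. H3K4me2 peaks overlapped 13 of the 19 regions in all 6 lists. In 5 of the 19 regions another protein-coding gene had an end within 1 kb (Lias beside Rpl9, Pidd1 beside Rplp2, Nkiras1 beside Rpl15, Vps52 beside Rps18 and Rab13 beside Rps27), so these peaks cannot be assigned to either gene alone.

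**Figure D3:**
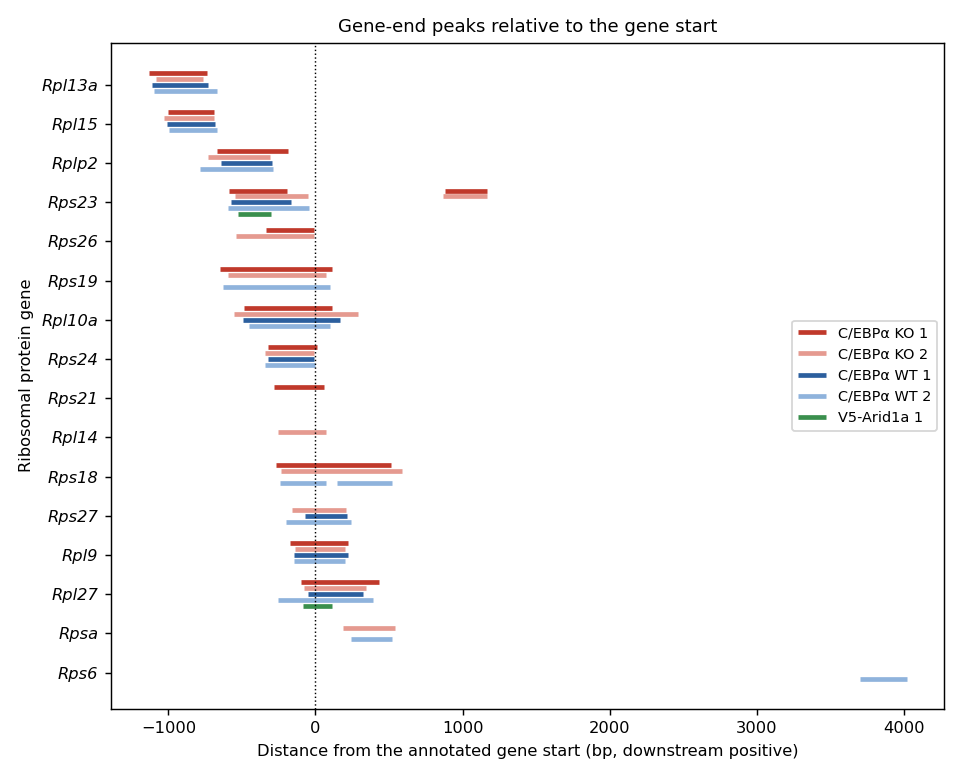
Position in bp relative to the annotated start (0, dotted; downstream positive) of each gene-end peak of the 16 members with a C/EBPα peak and a known start, by list (KO in reds, WT in blues, V5-Arid1a in green). Most peaks cover or adjoin the start, those of Rpl13a and Rpl15 lie upstream, and the second KO peak pair of Rps23 lies downstream.

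The 35 members with no C/EBPα gene-end peak in any list had the nearest peak 1336 bp to 169269 bp from a gene end, with a median of 15627 bp. Among them, Rpl18 has a start in the sequence table that lies 2604 bp inside the annotated gene, and a C/EBPα peak stood at that start in all 4 lists, 333 and 341 bp wide in KO and 301 and 315 bp in WT. With windows around these starts alone, 9 of 43 members had a peak in all 4 lists, Rpl18 included, against 16.1% of other marked genes. By gene ends, the nearest outside the window were Rpl18 (1336 bp), Rpl12 (2075 bp) and Rps13 (2081 bp), and for 22 of the 35 the nearest peak lay beyond 10 kb. Counting every C/EBPα region within 10 kb, 31 of 53 members (58.5%) had at least 1, against 62.5% of other marked genes. Of the 50 such regions 5 (10%) were gained, against 4.43% of those near other marked genes, 1 (2%) was lost, against 6.61%, and 22 (44%) were kept, against 47.9%. The gained ones were those of Rps26 and Rps23 and regions 3448 bp from Rpl24, 4494 bp from Rpl18 and 7497 bp from Rpl7a. The lost one lay 4338 bp from Rps28. Counts this small were not tested.

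Related gene groups, chosen with earlier results of these data known, were set beside the members. Of 32 other cytosolic ribosomal protein genes 0 gained a C/EBPα peak, and Rpl22l1, Rpl36, Rpl41 and Rps27a (12.5%) had one in all 4 lists. Of 38 translation factor genes 2 gained one, Eif4g2 and Eif5 (5.26%), and 11 kept one. Of 25 ribosome biogenesis genes 1 gained one, Polr1a, which encodes the catalytic subunit of RNA polymerase I, and 2 kept one. Of 78 mitochondrial ribosomal protein genes 4 gained one, Mrpl21, Mrpl23, Mrpl36 and Mrpl54 (5.13%), and 5 kept one. Of 40 proteasome subunit genes 1 gained one, Psmd4, and 4 kept one. Losses numbered 0 in all 5 groups, and the differences between groups were not tested.

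The width of a C/EBPα peak, the single value these lists hold, was compared as a rank over the 2129 genes with a peak in all 4 lists, on a normal-score scale. limma called 0 of these genes at a Benjamini-Hochberg adjusted p under 0.05 (0% of genes), while 200 (9.39%) had an unadjusted p under 0.05. Of the 10 kept members 0 were called and 0 had an unadjusted p under 0.05. On this rank scale both KO values lay below both WT values at Rpl13a, Rpl3 and Rps24, and at the other kept members they overlapped. All 10 differences ran toward narrower ranks in KO, against 53.8% of all tested genes, with a median of -0.33 against -0.04 over all. Without KO list 1 the direction held in 8 of 11 members and the median was -0.13, and without WT list 2 in 8 of 10. The largest difference was at Rpl13a, -0.89 ± 0.351 (SE; limma, adjusted p = 0.540).

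V5-Arid1a peaks stood at 3 of 53 members (5.66%, 1.18 to 15.7), against 3.99% of other marked genes, in a single library. They were at Rpl27 (chr11:101442160-101442359, 200 bp), Rps23 (chr13:90922592-90922816, 225 bp) and Rpl17 (339 bp). Each overlapped C/EBPα peaks of all 4 lists, and at Rpl27 the peak was centred 14 bp from the start. None stood at Rps26. Of the related groups, 2 translation factor genes (Eif6 and Eif4g1) and 1 proteasome gene (Psmd9) had a V5-Arid1a peak, and the other 3 groups had 0.

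H3K4me2 was at every ribosomal protein gene. All 53 members were marked at a gene end in all 6 lists, against 50.9% of the other protein-coding genes. Of the related groups, 31 of 32 other cytosolic ribosomal protein genes, 38 of 38 translation factor genes, 24 of 25 biogenesis, 73 of 78 mitochondrial ribosomal protein and 37 of 40 proteasome genes were marked in all 6. When only peaks at or above the median −log10 q of all lists counted, 35 members stayed marked in all 6 lists. That fall came from KO list 3, where 35 members had such a peak, against 52 in KO list 1 and 53 in each of the other 4 lists. The cut was common to all lists, a −log10 q of 1.88. Among the peaks of KO list 3 alone, the strongest peak of each member ranked at percentile 51.7 (Rpl11) or higher. The other marked genes fell in the same list: 62.5% had such a peak in KO list 3, beside 66.0% of members, against 96.1% in KO list 1, beside 98.1% of members.

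Around 1 kb downstream of the start, the mark covered a larger share of members than of other marked genes, while at the start and at 2 kb downstream the members' share was mostly the smaller. At 1000 bp downstream of the start, 69.8%, 100% and 79.1% of the 43 members with a known start lay in an H3K4me2 peak in the KO lists and 97.7%, 100% and 93.0% in the WT lists. For the 8984 other marked genes with a known start it was 46.0%, 82.0% and 59.4% in KO and 63.0%, 80.9% and 61.7% in WT. The members were higher in 6 of 6 lists, a difference that was not tested. At the start itself the mark covered 51.2%, 95.3% and 58.1% of members in KO and 88.4%, 95.3% and 79.1% of members in WT, against 68.9%, 95.7% and 71.5% in KO and 90.6%, 95.2% and 82.6% in WT for other marked genes. There members were lower in 5 of 6 lists, the exception being WT list 2. At 2000 bp downstream the mark covered 4.65%, 32.6% and 16.3% of members in KO and 20.9%, 27.9% and 20.9% in WT, against 14.9%, 41.0% and 26.1% of other marked genes in KO and 23.8%, 40.4% and 24.96% in WT. Members were lower there in 6 of 6 lists.

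Members also differ from other marked genes in length, with a median of 3230 bp against 22271 bp, so that both gene ends can fall in 1 peak; the part of length in the pattern was not tested. At 1000 bp the other cytosolic ribosomal protein genes averaged 77.8% ± 11.98 in KO and 84.1% ± 5.50 in WT (SD, n = 3 each). The mitochondrial ribosomal protein genes averaged 60.4% ± 28.3 in KO and 75.8% ± 18.9 in WT, and the translation factor genes 85.1% ± 15.5 in KO and 88.5% ± 12.1 in WT. The members averaged 82.9% ± 15.5 in KO and 96.9% ± 3.55 in WT, a difference of -13.95 points, less than the KO spread. Without KO list 3 the KO mean of members was 84.9%. At the start the members averaged 68.2% ± 23.8 in KO and 87.6% ± 8.17 in WT, again a difference within the KO spread.

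**Figure D4:**
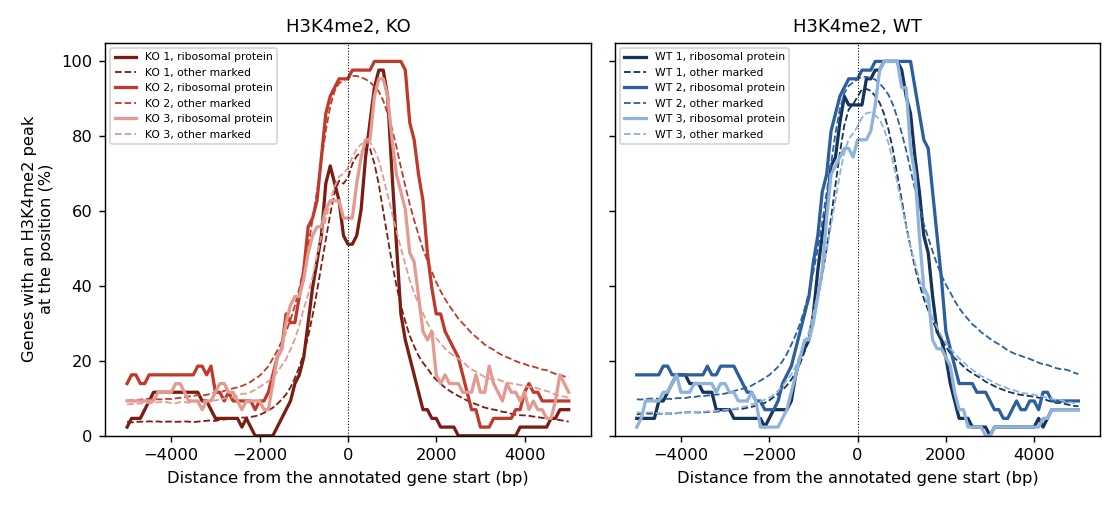
Share of genes (%) lying in an H3K4me2 peak at each distance from the annotated start (bp, dotted at 0), with KO lists on the left and WT lists on the right, for 43 ribosomal protein genes (solid) and 8984 other marked genes (dashed). The solid lines peak downstream of the start and stand above the dashed ones at 1000 bp and below them at 2000 bp in all 6 lists, and in KO lists 1 and 3 they dip at the start.

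In KO lists 1 and 3, which dip at the start, the mark was also more often split into several peaks at a gene. It was split at 19, 6 and 27 members in KO (35.8%, 11.3% and 50.9%) and at 5, 8 and 10 in WT (9.43%, 15.1% and 18.9%). For the other marked genes the split shares were 21.0%, 14.7% and 37.1% in KO and 11.8%, 16.4% and 18.3% in WT. KO lists 1 and 3 were high in both sets of genes, and KO list 2 was in the WT range.

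In strength, the members ranked near the middle of marked genes. The rank percentile of the highest −log10 q at a gene end had a median over members of 47.0, 61.6 and 49.1 in KO and 50.2, 61.7 and 43.3 in WT, where 50 is the middle of all marked genes. limma on these ranks called 0 of 11169 genes (0%), and 425 (3.81%) had an unadjusted p under 0.05. Among the 53 members 0 were called and 4 had an unadjusted p under 0.05. The differences were higher in KO in 29 and lower in 24, with a median of 0.06 against 0.01 over all genes.

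The 5 members with the highest mean rank over the 6 lists were Rps21, Rpl29, Rpl13a, Rpl24 and Rpl26. Rps21 had rank percentiles of 36.3, 93.3 and 71.3 in KO and 90.7, 93.1 and 86.4 in WT. Rpl24, whose mutation causes the belly spot and tail mouse, had 79.1, 72.8 and 51.9 in KO and 78.3, 91.8 and 85.7 in WT. KO and WT values overlapped at both genes. At Rpl29 they were 88.8, 59.1 and 49.1 in KO and 85.5, 92.8 and 87.0 in WT, also overlapping. Rpl13a had 71.2, 60.6 and 76.7 in KO and 83.1, 95.2 and 74.4 in WT. Rpl26 had 92.1, 72.7 and 60.4 in KO and 81.6, 85.6 and 62.5 in WT.

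The 5 lowest were Rpl11, Rpl19, Rps23, Rpl15 and Rps19. Rpl11, which with Rpl5 restrains Mdm2 when ribosome assembly fails, had 19.5, 25.4 and 2.4 in KO and 30.0, 22.7 and 2.6 in WT. Rpl19, whose protein forms a bridge between the subunits, had 51.7, 16.0 and 41.9 in KO and 4.3, 9.1 and 3.7 in WT. Every KO value of Rpl19 lay above every WT value, with a difference of 1.23 ± 0.560 on the normal-score scale (SE; limma, adjusted p = 0.998), so it was not called. Rps23 had 1.2, 23.9 and 21.7 in KO and 48.5, 27.4 and 4.5 in WT. Rpl15 had 44.1, 27.6 and 15.9 in KO and 6.6, 25.03 and 9.6 in WT. At Rps19 the values were 18.4, 42.8 and 24.4 in KO and 33.9, 41.7 and 3.9 in WT. Apart from Rpl19 the genotypes overlapped at each of these 5 genes.

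The other members with an unadjusted p under 0.05 were Rps9, Rplp2 and Rps18, named after their values were seen. Rps9, at the mRNA entry of the small subunit, had 79.6, 30.4 and 98.7 in KO and 19.2, 37.8 and 18.3 in WT. Rplp2 had 98.1, 58.5 and 89.2 in KO and 27.5, 85.6 and 14.4 in WT. Rps18 had 67.9, 72.8 and 97.0 in KO and 39.3, 71.7 and 3.3 in WT. KO and WT values overlapped at all 3 genes, and limma gave an adjusted p of 0.998 for each. At Rps10 and Rps25, also named after their values were seen, every KO value lay above every WT value, as at Rpl19. Neither was called (limma, adjusted p = 0.998 for each).

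**Figure D5:**
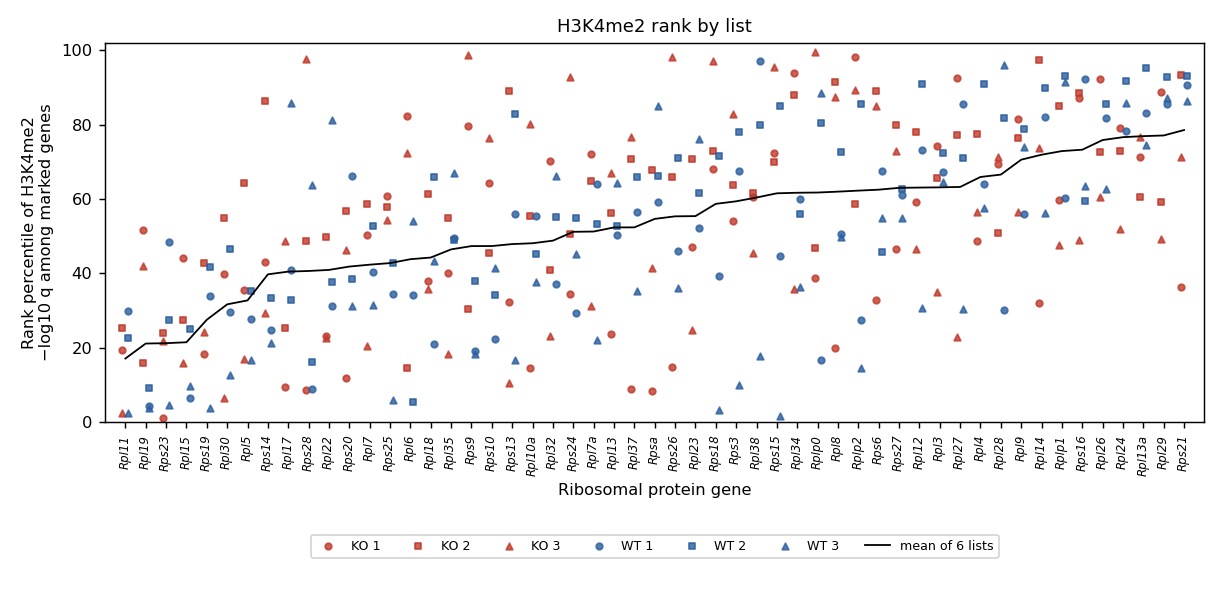
Rank percentile of the highest H3K4me2 −log10 q at a gene end among the 11169 genes marked in all 6 lists, for each of the 53 members ordered by their mean over lists (black line), with KO lists in red and WT lists in blue (circle, square and triangle for lists 1, 2 and 3). Members span nearly the whole range, and at most genes the 3 KO and 3 WT points interleave.

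Members with a C/EBPα peak in some list had a median mean rank of 60.5 (n = 18) and those with none 51.2 (n = 35). Among other marked genes the medians were 50.6 with a C/EBPα peak and 50.9 without. In KO list 1 the order of the members was the reverse, 35.4 with a peak and 51.7 without. Of the 53 members, 19 host 38 small nucleolar RNA genes, 26 have another protein-coding gene whose window meets theirs, and 41 have annotated pseudogene copies, 169 in all. Short reads that match both a gene's exons and such a copy cannot be placed with certainty.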

How the data were processed

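Hepatocyte ChIP-seq peak lists were analysed for 11 of 21 samples; the other 10 are input samples and were not used here. Per the submitters' processing notes the build was mm10 and the tools were HOMER, MACS2 2.0.10.20131216, Picard and Bowtie2 2.2.3. The deposited C/EBPα and V5-Arid1a lists give the position of each peak and no strength, and peak names show that 40.0% to 40.1% of an earlier numbering was kept, by a step not given in the sources used here. The deposited H3K4me2 lists give a fold over local background, a score, and −log10 p and −log10 q values from the authors' peak caller, called per library. These depend on the depth of each library, so they were used as ranks within a list, except that 1 alternative applied a common −log10 q.

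Peaks on chromosomes 1 to 19, X and Y were overlapped with RefSeq gene ends (GRCm38.p6). The start and strand of a gene came from the promoter table, which holds 43 of 53 members and 17492 of 21887 genes. Ranks of peak width (C/EBPα) and of −log10 q (H3K4me2) over the genes with a peak in every list were turned into normal scores and fitted with limma 3.58.1 in R 4.3.3, with a threshold of 0.05 and adjustment over all genes; the script was tested on simulated data. Other steps used Python 3.11.15. Bounds of shares are exact binomial (Clopper-Pearson) 95% intervals and cover counting error only.

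Alternatives were other windows, peak thresholds, overlap rules, values and left-out libraries. The members, gene lists and tests were chosen with earlier results of these data known. The rule named members when C/EBPα was gained, lost or kept in all 4 lists, or when V5-Arid1a was present. It also named the 5 highest and 5 lowest in mean H3K4me2 rank. Beyond this rule, further members are named for a motif, a mixed or nearby C/EBPα peak, an H3K4me2 difference or a changed call. The C/EBP site was added after the values were seen, in place of a pattern with 1 base too many. Coordinates are mm10 and count from 1.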

Additional observations from a re-analysis of the deposited data

How the results depend on the processing

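With a 5 kb window 2 members gained a C/EBPα peak (Rps26 and Rpl24) and 1 lost one (Rps28), beside 2.53% gained and 1.84% lost among other marked genes. Counting only peaks of at least the median width left 3 members with a C/EBPα peak in all 4 lists (7.68% of other marked genes) and 1 with a V5-Arid1a peak, and the stricter −log10 q left 35 members marked by H3K4me2 in all 6 lists. Leaving out each C/EBPα library in turn gave 1 to 3 gained members (3.06% to 6.34% of other marked genes), 0 to 1 lost (0.990% to 2.78%), 10 to 12 kept (18.1% to 21.5%) and a KO minus WT difference in share of 0 to 7.55 points. That difference was also 0 with a 5 kb window and 7.55 with an equal number of the widest peaks per list, so its size depends on these choices. The lost call was Rps27 without KO list 2 and Rps6 without WT list 1, and the added gains were Rpl14 without KO list 1, Rps21 without KO list 2, and Rps18 and Rps19 without WT list 2. The causes of these changes were not tested beyond the counts themselves. The other 65 of 75 alternative values stayed within 1.5 times a count or within 1 SD between libraries of the share difference, and limma called 0 genes for either target under every alternative. Whether the replicate numbers pair the libraries cannot be told from these values. Deviations of same-numbered C/EBPα libraries correlated at -0.03, where 2 libraries per genotype leave a single value apart from its sign. For H3K4me2 the same-numbered libraries correlated at 0.09, 0.28 and 0.15, against -0.20 to 0.03 for differently numbered ones. Every H3K4me2 library correlated best with its own number. With the replicate number as a block limma again called 0 genes, with 164 (C/EBPα) and 597 (H3K4me2) at an unadjusted p under 0.05. Depth is unknown, and peak presence is the limit of what these lists can show.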
